A study of Mus musculus with 45 samples.

Results

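Cck and Gast, the genes of the gut hormones cholecystokinin and gastrin, were followed through bulk RNA-seq of mouse islets of Langerhans. They are 2 of the 22904 genes in the deposited matrices. Both were found by gene symbol, and both were among the 20306 genes tested after a filter on low counts. They were chosen because an earlier analysis of these data reported both higher on the high fat diet in NZO/HlLtJ islets. That diet difference and the height of NZO/HlLtJ above the other strains are therefore given as values without a test.

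Islets came from female and male mice of 3 inbred strains, all labelled wild type. C57BL/6J is the common laboratory reference strain, CAST/EiJ is a wild-derived strain, and NZO/HlLtJ (New Zealand Obese) is a polygenic model of obesity in which males are prone to diabetes. Each mouse was fed a control diet labelled 10% fat + fiber or a high fat, high sugar diet labelled 44% fat + fiber starting at week 6, and islets were collected at week 16. Crossing strain, sex and diet gives 12 groups and 45 libraries. There were 4 libraries per group, except 3 in CAST/EiJ males on 10% fat and 3 in each NZO/HlLtJ male group, so that 16 libraries were C57BL/6J, 15 CAST/EiJ and 14 NZO/HlLtJ. The labels do not say whether a library is 1 animal, so the p-values speak only of how these libraries spread, which may be technical. Single males and females named below are libraries.

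Cholecystokinin is made by I cells of the small intestine and by neurons, and it drives gall bladder contraction and pancreatic enzyme secretion. Gastrin is made by G cells of the gastric antrum and drives acid secretion. The hormones are related peptides that share their active carboxy-terminal end. Each is cut from a larger precursor by prohormone convertases and trimmed and amidated before secretion. Cholecystokinin acts mainly through CCK1 receptors (gene Cckar), and both hormones activate CCK2 receptors (gene Cckbr). Neither is a classical product of adult islets. Gastrin is known from the developing pancreas, and Cck transcripts are known from beta cells of obese mice.

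Cck (ENSMUSG00000032532) lies on the minus strand of chromosome 9, at 121489825 to 121495689 of GRCm38. Gast (ENSMUSG00000017165) lies on the plus strand of chromosome 11, at 100334407 to 100336996. In GENCODE M21 the main transcript of each gene has 3 exons, of which the first is non-coding. The coding sequence is 348 bases in Cck-201 and 306 bases in Gast-201, both with the stop codon.

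The kinship of the genes is plain at the end of their coding sequences, which encodes the shared hormone end and the signals next to it for amidation and cleavage. Coding bases 274 to 321 of Cck-201 and 241 to 288 of Gast-201 are aligned here, with bases that are the same in both in capitals. Of the 48 bases, 29 (60.4%) are identical, and the longest identical run is 8 bases.
Cck-201: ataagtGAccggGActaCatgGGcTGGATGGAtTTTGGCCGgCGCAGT
Gast-201: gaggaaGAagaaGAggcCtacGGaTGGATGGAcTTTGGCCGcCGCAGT

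The 250 bases before each gene's start, from the RefSeq promoter table of GRCm38.p6, are shown because both transcripts were high in the same NZO/HlLtJ libraries (values follow). The Cck window is chr9:121495695-121495944 on the minus strand, and the Gast window is chr11:100334157-100334406 on the plus strand. Both are reference genome sequence, and the NZO/HlLtJ and CAST/EiJ sequences were not read. Capitals mark every match, on either strand, to 7 motifs searched: TATAAA (the core promoter box), TGACGTCA (full cAMP response element), TGACG (the core of that element), TGACTCA (AP-1 site), CACGTG (palindromic E-box), CANNTG (any E-box, which takes in CACGTG) and GGGCGG (GC box).
Cck: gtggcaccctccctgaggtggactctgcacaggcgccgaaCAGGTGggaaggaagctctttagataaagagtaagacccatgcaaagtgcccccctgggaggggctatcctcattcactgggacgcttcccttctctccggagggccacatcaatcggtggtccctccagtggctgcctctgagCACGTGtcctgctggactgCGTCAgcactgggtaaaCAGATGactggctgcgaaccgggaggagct
Gast: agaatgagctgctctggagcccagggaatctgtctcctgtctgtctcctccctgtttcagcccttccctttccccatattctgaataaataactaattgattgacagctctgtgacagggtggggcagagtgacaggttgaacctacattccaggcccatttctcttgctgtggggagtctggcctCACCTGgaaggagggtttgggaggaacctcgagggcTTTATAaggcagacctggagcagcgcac

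The Cck window held 3 E-boxes, starting 210, 66 and 30 bases before the gene start. The one at 66 is the palindrome CACGTG, which 6.02% of the 32851 windows of this length in the table hold. It also held the core element TGACG at 47 bases, which 17.8% of windows hold. The Gast window held TATAAA at 28 bases, read on the opposite strand (12.4% of windows), and 1 E-box at 64 bases (66.2% of windows hold any). Apart from an E-box, no motif searched was in both windows.

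Library totals ran from 57.2 to 110 M estimated read counts (median 84.4 M). Levels are given as CPM, the counts of a gene per 1000000 counts of its library, with library sizes scaled by TMM factors. In 5 libraries, transcripts that mark another strain were present at over 1% of that strain's level, and in the other 40 they did not pass 0.635%. These 5 are C57BL/6J female 44% fat replicate 2, CAST/EiJ female 44% fat replicates 1, 2 and 4, and NZO/HlLtJ male 44% fat replicate 3. Results that rest on them are given with and without them.

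In C57BL/6J islets Cck was at the edge of detection. Females on 10% fat had 0, 0.0443, 0.0127 and 0.0487 CPM, and females on 44% fat had 0.0620, 0.0608, 0.0740 and 0.0118 CPM. Males on 10% fat had 0.0116, 0.0579, 0 and 0.0188 CPM, and males on 44% fat had 0.0437, 0.0220, 0.0844 and 0.0118 CPM. The 4 groups overlapped throughout, and all 16 libraries rest on 8 counts or fewer. The libraries with no count, female and male 10% fat replicates 1 and 3 in that order, allow a level of up to 0.0335 and 0.0514 CPM respectively (3 counts, counting error only).

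In CAST/EiJ islets Cck was low but present in every library. Females on 10% fat had 0.108, 0.470, 0.120 and 0.127 CPM, and females on 44% fat had 0.349, 0.334, 0.500 and 0.227 CPM. Males on 10% fat had 0.286, 0.0791 and 0.297 CPM, and males on 44% fat had 0.402, 0.0767, 0.134 and 0.121 CPM. These 4 groups also overlapped one another, on 5 to 39 counts per library.

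In NZO/HlLtJ islets the range of Cck was far wider. Females on 10% fat had 0.706, 0.696, 0.501 and 0.966 CPM, and females on 44% fat had 2.05, 19.5, 16.2 and 10.3 CPM. The female diet groups did not overlap. Males on 10% fat had 0.459, 2.27 and 21.5 CPM, and males on 44% fat had 94.7, 78.7 and 94.1 CPM. The male diet groups did not overlap either. On 10% fat 1 male library stood above every female library on either diet, and another stood below all of them.

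Gast was low in both other strains. In C57BL/6J its 16 libraries ran from 0.0188 to 0.190 CPM with a median of 0.0702, on 2 to 18 counts. Its females had 0.0895, 0.0885, 0.0380 and 0.0649 CPM on 10% fat and 0.0620, 0.0730, 0.0952 and 0.0236 CPM on 44% fat, and its males had 0.0932, 0.0675, 0.0514 and 0.0188 CPM on 10% fat and 0.0292, 0.110, 0.190 and 0.166 CPM on 44% fat. The diet groups overlapped in both sexes. In CAST/EiJ its 15 libraries ran from 0 to 0.178 CPM with a median of 0.0456, on 0 to 14 counts. Females there had 0.0407, 0.178, 0.142 and 0.0634 CPM on 10% fat and 0.0763, 0.0575, 0.0256 and 0.0690 CPM on 44% fat, and males had 0.0742, 0.0226 and 0.0456 CPM on 10% fat and 0.0236, 0.0153, 0 and 0.0304 CPM on 44% fat. These diet groups overlapped too, with the lowest levels in males on 44% fat. The library at 0, male 44% fat replicate 3, allows up to 0.0309 CPM by the same 3 counts.

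In NZO/HlLtJ islets Gast followed the order of Cck at a lower level. Females on 10% fat had 0.272, 0.102, 0.0786 and 0.236 CPM, and females on 44% fat had 0.250, 1.97, 1.16 and 2.16 CPM. The lowest female on 44% fat, replicate 1, was also the lowest of its group for Cck, and for Gast it lay within the 10% fat range. Males on 10% fat had 0.568, 0.552 and 2.40 CPM, and males on 44% fat had 8.84, 4.96 and 3.65 CPM. The male groups did not overlap, and the highest male on 10% fat, replicate 3, was the highest of its group for both genes.

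**Figure D1:**
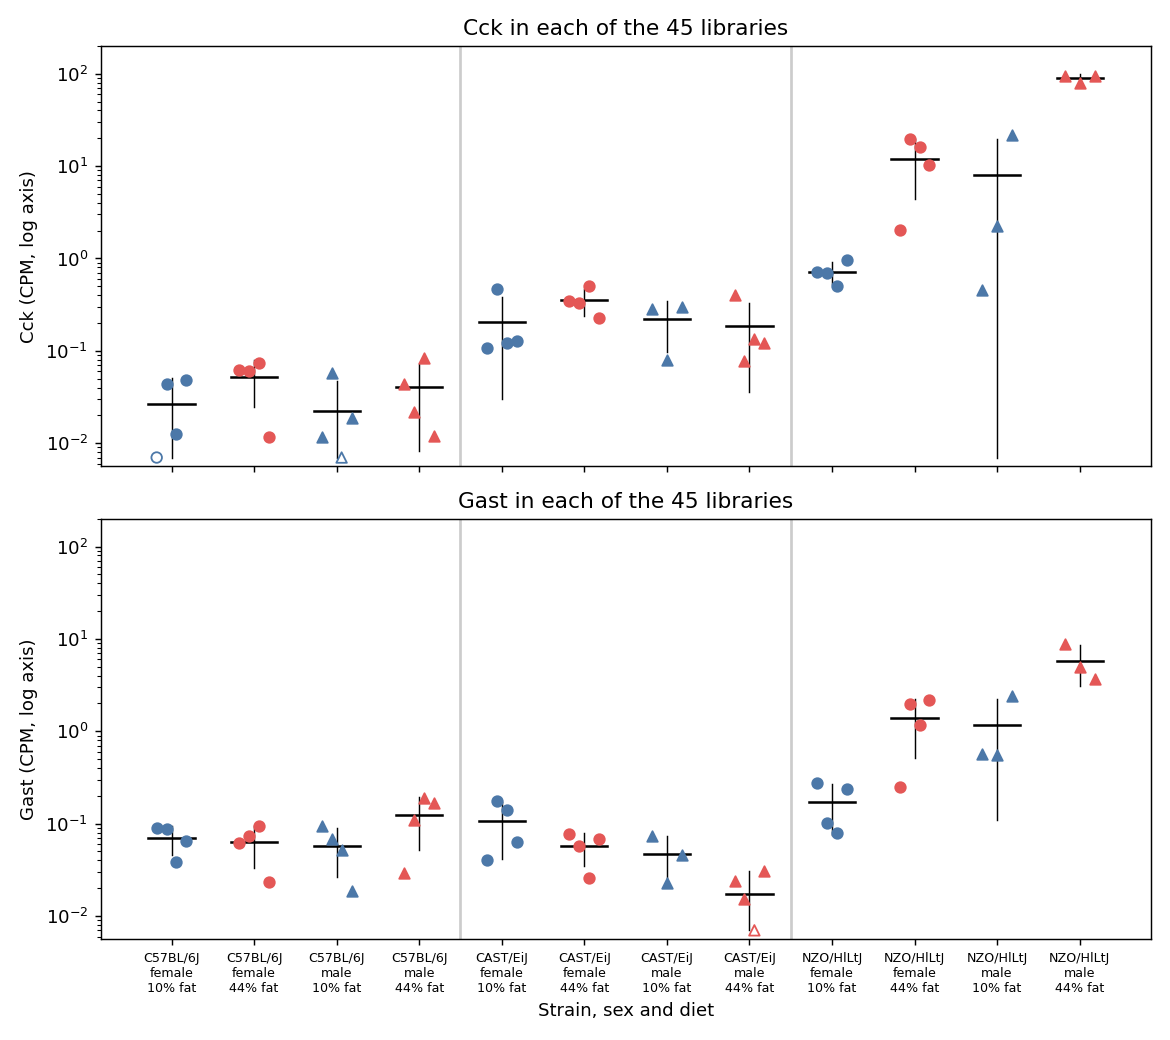
Cck (top) and Gast (bottom) in CPM on a log axis in each of the 45 libraries, by strain, sex and diet (circles female, triangles male, blue 10% fat, red 44% fat); long bars are group means, thin bars 1 SD cut off at the axis floor, and open symbols at the floor are libraries with no count. NZO/HlLtJ males on 44% fat are highest for both genes, at 78.7 to 94.7 CPM for Cck and 3.65 to 8.84 CPM for Gast.

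Ordered by group mean, Cck was highest in NZO/HlLtJ males on 44% fat at 89.2 ± 9.05 CPM (SD, n = 3). NZO/HlLtJ females on 44% fat followed at 12 ± 7.64 (n = 4), NZO/HlLtJ males on 10% fat at 8.08 ± 11.7 (n = 3) and NZO/HlLtJ females on 10% fat at 0.717 ± 0.191 (n = 4). The CAST/EiJ groups came next, from 0.352 ± 0.113 (n = 4) in females on 44% fat to 0.183 ± 0.148 (n = 4) in males on 44% fat, and the C57BL/6J groups were last, from 0.0522 ± 0.0276 to 0.0221 ± 0.0251 (n = 4 each). Of neighbours in this order, the ranges did not overlap between the first and second groups, between the last NZO/HlLtJ group and the first CAST/EiJ group, and between the last CAST/EiJ group and the first C57BL/6J group. All other neighbours overlapped, so their order is not firm.

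Gast also placed the 4 NZO/HlLtJ groups first and in the same order, at 5.82 ± 2.70, 1.39 ± 0.873, 1.17 ± 1.06 and 0.172 ± 0.0962 CPM. The first group stood clear of the second, and the third clear of the fourth. Below them C57BL/6J and CAST/EiJ groups were interleaved from 0.124 ± 0.0713 to 0.0173 ± 0.0131 CPM, and each overlapped the next. NZO/HlLtJ females on 10% fat overlapped the highest of these groups for Gast, but not for Cck.

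To set levels of different genes side by side they were divided by exonic length (the union of annotated exons, in kilobases). In NZO/HlLtJ males on 44% fat Cck reached 68.3 ± 6.93 CPM per kb and Gast 12.6 ± 5.86 (SD, n = 3). Over the 691 bases of its main transcript alone, rather than the 1305 bases of all its annotated exons, Cck would stand at 129 CPM per kb, so its order relative to genes of like level depends on the length used. In the same libraries Ucn3, the urocortin of mature beta cells, was at 43.0 ± 21.6 CPM per kb, and Pdyn, which encodes the prodynorphin precursor, at 103 ± 57.1. The established islet hormones were far above, with Sst (somatostatin) at 1788 ± 221, Ppy (pancreatic polypeptide) at 3986 ± 1528 and Gcg (glucagon) at 9123 ± 2426 CPM per kb. In NZO/HlLtJ females on 10% fat the per-kb levels were 0.550 ± 0.146 for Cck and 187.8 ± 24.5 for Ucn3 (n = 4). No test was made between genes.

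The fitted diet difference in NZO/HlLtJ (44% minus 10% fat, log2, mean over the sexes) was 3.77 (SE 0.47) for Cck, or 13.6-fold, and 2.68 (SE 0.34) for Gast, or 6.39-fold. In females it was 4.06 (SE 0.63) for Cck and 3.03 (SE 0.48) for Gast, and in males 3.47 (SE 0.68) and 2.32 (SE 0.47). The genes were picked on this contrast, in which 35.8% of all genes tested passed an adjusted p of 0.05 in edgeR's quasi-likelihood test, so nothing is read from it. NZO/HlLtJ male 10% fat replicate 3, with 21.5 CPM of Cck, bears on the male value. Without it the male difference was 6.03 for Cck and 3.37 for Gast, and the mean over the sexes 5.04 and 3.20. On 10% fat NZO/HlLtJ exceeded C57BL/6J by 6.54 (SE 0.67) for Cck and 2.78 (SE 0.45) for Gast, and exceeded CAST/EiJ by 3.47 (SE 0.52) and 2.57 (SE 0.46). These strain contrasts are likewise given as values only, and 43.8% and 54.8% of genes tested passed in them.

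The same NZO/HlLtJ values are given here by the number series of the sample codes, as a description of libraries already used to choose the genes. Sample codes begin with 76, 80 or 89, which the labels do not explain, and only those beginning with 76 include all 4 NZO/HlLtJ groups. There, Cck was 0.706 and 0.696 CPM in females on 10% fat against 2.05 and 19.5 on 44% fat. It was 0.459 in the single male library on 10% fat against 94.7 in the single male library on 44% fat. Gast was 0.272 and 0.102 against 0.250 and 1.97 CPM in females, and 0.568 against 8.84 CPM in males. Of these, only the Gast values of females overlap between the diets. With the series as a factor in the model, the NZO/HlLtJ difference was 3.82 for Cck and 2.72 for Gast.

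The genes were not chosen on the diet contrast of the other strains, and it was tested. In C57BL/6J the difference was 0.90 (SE 1.03, 95% interval -1.13 to 2.92) for Cck and 0.51 (SE 0.53, interval -0.53 to 1.54) for Gast, and edgeR's adjusted p was 1.00 for both. In CAST/EiJ it was 0.25 (SE 0.56, interval -0.86 to 1.35; edgeR adjusted p = 0.963) for Cck and -1.20 (SE 0.69, interval -2.55 to 0.15; adjusted p = 0.709) for Gast. Few genes of any kind passed there, 0.0246% of those tested in C57BL/6J and 0.0443% in CAST/EiJ. The intervals are wide at these counts.

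Males exceeded females in NZO/HlLtJ for both genes. This contrast is other than the one that chose them, but it draws on the same 14 libraries. Males on 44% fat, the highest group for both genes, weigh in both contrasts. The p-values here are therefore not independent of that choice. As a mean over the diets, the log2 difference was 3.19 (SE 0.43) for Cck, or 9.15-fold, with edgeR's adjusted p = 6.44e-07. For Gast it was 2.43 (SE 0.33), or 5.40-fold, with adjusted p = 4.37e-07. Such calls were common in this strain, where 30.7% of genes tested differed between the sexes. On 44% fat every male library stood above every female library for both genes. On 10% fat this held for Gast and not for Cck, whose lowest male library was below all female ones. Both calls held when any single library was left out, with differences of 1.91 to 3.50 for Cck and 1.91 to 2.63 for Gast. Summed macrophage markers also ran higher in males on 44% fat, 489 to 889 CPM against 158 to 222 in females, and their part in the sex difference was not tested.

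Whether the diet difference depended on sex was not resolved. The diet-by-sex interaction in NZO/HlLtJ, male minus female, was -0.60 (SE 0.84, 95% interval -2.24 to 1.05; edgeR adjusted p = 0.713) for Cck and -0.71 (SE 0.65, interval -1.99 to 0.57; adjusted p = 0.534) for Gast. In this contrast 10% of genes tested passed. The sign rests on NZO/HlLtJ male 10% fat replicate 3. Without it the interaction was 1.96 (adjusted p = 0.0760) for Cck and 0.34 (adjusted p = 0.803) for Gast, and limma on the authors' vst values gave 1.64 (adjusted p = 0.107) and 0.62 (adjusted p = 0.246).

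In the other strains no sex difference passed for either gene. The differences were -0.14 (SE 1.09) and 0.34 (SE 0.53) for Cck and Gast in C57BL/6J, where 0.389% of genes passed. In CAST/EiJ, where 0.901% passed, they were -0.41 (SE 0.56) for Cck and -1.48 (SE 0.67) for Gast, and the latter had an unadjusted p of 0.0326 and edgeR adjusted p = 0.428. The diet-by-sex interaction did not pass either, with 0% of genes called in C57BL/6J and 0.0295% in CAST/EiJ.

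Cck also differed between CAST/EiJ and C57BL/6J. It was higher in CAST/EiJ than in C57BL/6J on 10% fat by 3.07 (SE 0.82), or 8.40-fold, with edgeR's adjusted p = 0.00178, and on 44% fat by 2.42 (SE 0.68), or 5.35-fold, with adjusted p = 0.00271. On both diets a large part of the genome differed between these strains, 48% and 50.5% of genes tested. Without the 5 libraries that carry transcripts of another strain the differences were 3.09 (adjusted p = 0.00302) and 2.74 (adjusted p = 0.00885). Among CAST/EiJ females on 44% fat, replicates 1, 2 and 4 carry transcripts of both other strains. Those of NZO/HlLtJ were at a median of 4.92%, 2.91% and 1.97% of their NZO/HlLtJ level. Cck in these libraries was 0.349, 0.334 and 0.227 CPM, or 5.55%, 5.31% and 3.61% of the NZO/HlLtJ median. Replicate 3, without such transcripts, had 0.500 CPM. The part of the transcripts in these Cck values was not tested. With limma on the authors' vst values neither CAST/EiJ minus C57BL/6J difference passed, at 0.58 (adjusted p = 0.156) on 10% fat and 0.53 (adjusted p = 0.168) on 44% fat. That scale flattens counts as low as these.

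Gast did not follow Cck in this comparison. On 10% fat its CAST/EiJ minus C57BL/6J difference was 0.21 (SE 0.59, 95% interval -0.95 to 1.37; edgeR adjusted p = 0.802), and with acinar markers as a covariate it was -0.11. On 44% fat Gast was lower in CAST/EiJ, with a log2 difference of -1.50 (SE 0.62; edgeR adjusted p = 0.0406). That call was not stable. It was lost without the 5 libraries (-2.01, adjusted p = 0.0774), with library totals in place of TMM (-1.54, adjusted p = 0.0531), with the number series as a factor (-1.44, adjusted p = 0.0515), with the acinar covariate (-1.73, adjusted p = 0.0571), with limma on vst values (-0.22, adjusted p = 0.264), and without any 1 of 11 single libraries (adjusted p up to 0.106). Those 11 were C57BL/6J female 44% fat replicates 1, 2 and 3, C57BL/6J male 44% fat replicates 3 and 4, CAST/EiJ female 44% fat replicates 2 and 3, CAST/EiJ male 44% fat replicates 1, 2 and 3, and CAST/EiJ female 10% fat replicate 4.

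Cck and Gast also varied together between NZO/HlLtJ libraries of 1 group. After group means were subtracted from log2 CPM, Pearson's r over the 14 libraries was 0.767 (permutation within groups, two-sided p = 0.0198, or 0.0594 adjusted over the 3 strains). Spearman's rho was 0.842 (permutation p = 0.0122, adjusted 0.0365). Leaving out the 2 libraries farthest from the median of Cck gave r = 0.809. The Pearson p rose to 0.0811 without NZO/HlLtJ female 44% fat replicate 1 and to 0.0560 without NZO/HlLtJ male 10% fat replicate 3, with r = 0.660 and 0.687. In C57BL/6J r was 0.213 (permutation p = 0.459, n = 16) and in CAST/EiJ 0.377 (permutation p = 0.249, n = 15), at counts where sampling noise is large. The genes share each library's depth and cell mix.

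**Figure D2:**
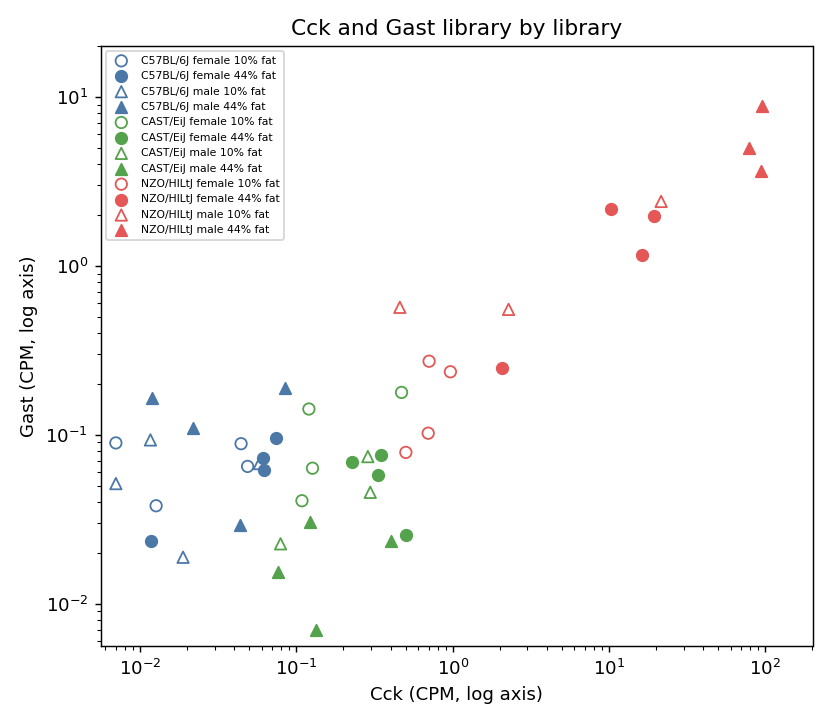
Gast against Cck in CPM, both on log axes, 1 point per library (blue C57BL/6J, green CAST/EiJ, red NZO/HlLtJ; circles female, triangles male; open 10% fat, filled 44% fat); libraries with no count are drawn at the axis floor. The red points run from 0.459 to 94.7 CPM of Cck and rise together, whereas the blue and green points reach no higher than 0.500 CPM of Cck and 0.190 CPM of Gast.

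Both genes were unusually variable within NZO/HlLtJ groups when these were pooled. The within-group SD of log2 CPM was 1.49 for Cck, at percentile 99.5 of the 20306 genes tested, and 1.06 for Gast, at percentile 96.1. The median over all genes was 0.29. For Cck the spread was uneven. Its SD on the authors' vst values was 2.07 in males on 10% fat and 1.24 in females on 44% fat. In females on 10% fat it was 0.187, and in males on 44% fat 0.158.

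The receptors were of unequal abundance. Cckar, the cholecystokinin receptor that acinar cells also carry, ran in NZO/HlLtJ from 7.82 to 34.7 CPM in females on 10% fat, 23.9 to 53.8 in females on 44% fat, 25.6 to 32.1 in males on 10% fat and 41.4 to 93.2 in males on 44% fat. The diet groups overlapped in females and not in males. The difference was 1.23 (SE 0.56, edgeR adjusted p = 0.0869), and it passed with DESeq2, with NZO/HlLtJ libraries fitted alone, and without C57BL/6J female 44% fat replicate 1 or NZO/HlLtJ female 10% fat replicate 2. The acinar list moved along with it. Its summed level was 17744 to 87334 CPM in females on 10% fat, 37696 to 98889 in females on 44% fat, 42785 to 58958 in males on 10% fat and 76475 to 163366 in males on 44% fat, although none of its 18 genes passed. Whether acinar RNA has a part in the Cckar values was not tested.

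Cckbr, the receptor that binds both hormones, was at 0.454 CPM in NZO/HlLtJ male 44% fat replicate 3, the highest of all 45 libraries. In the other NZO/HlLtJ libraries it did not pass 0.142 CPM. Replicate 3 also carries CAST/EiJ transcripts, at a median of 1.97% of their CAST/EiJ level. Their part in its Cckbr value was not tested. The Cckbr difference as a mean over the sexes was 1.21 (SE 0.66, edgeR adjusted p = 0.151). In males alone it was 2.47 (SE 0.94, edgeR adjusted p = 0.0386), with the other males on 44% fat at 0.0219 and 0.0794 CPM. Without replicate 3 the Cckbr difference was 0.63 (SE 1.20, adjusted p = 0.776) in males and 0.29 (adjusted p = 0.809) over both sexes. In females it was -0.05 (adjusted p = 0.979).

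Of 17 genes for the cutting, trimming, sulfation, amidation and packing of prohormones, 4 were higher and 2 lower on 44% fat in NZO/HlLtJ when the sexes were averaged (edgeR adjusted p under 0.05). Their median difference was 0.04, against -0.02 over all genes, of which 18.5% were higher and 17.3% lower. Chgb (chromogranin B, a granule protein) rose by 0.82, Pam (the amidating enzyme, which finishes both hormones) by 0.42, Qpct (glutaminyl cyclase) by 0.36 and Tpst1 (a tyrosylprotein sulfotransferase) by 0.29. Pcsk6 (a convertase) fell by 0.74 and Chga (chromogranin A) fell by 0.37. With library totals in place of TMM, which shifts the median of all genes to -0.15, 1 gene was higher, and the calls on Pam, Qpct and Tpst1 were lost.

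The sexes differed in this group. In females 9 of the 17 rose and 1 fell, with a median of 0.41, and in males 1 rose and 6 fell, with a median of -0.41. Of all genes tested, 9.37% rose and 7.83% fell in females (17.2% in all), and 17% rose and 15.1% fell in males (32.1% in all). Pcsk1, a convertase of regulated granules, rose by 0.68 in females (edgeR adjusted p = 0.00456) and fell by 0.83 in males (adjusted p = 0.0013), and its interaction passed (adjusted p = 0.000522). The diet-by-sex interaction passed for 11 of the 17, 10 of them lower in males and 1 higher, beside 5.58% lower and 4.42% higher of all genes. Cck and Gast were higher on 44% fat in both sexes.

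**Figure D3:**
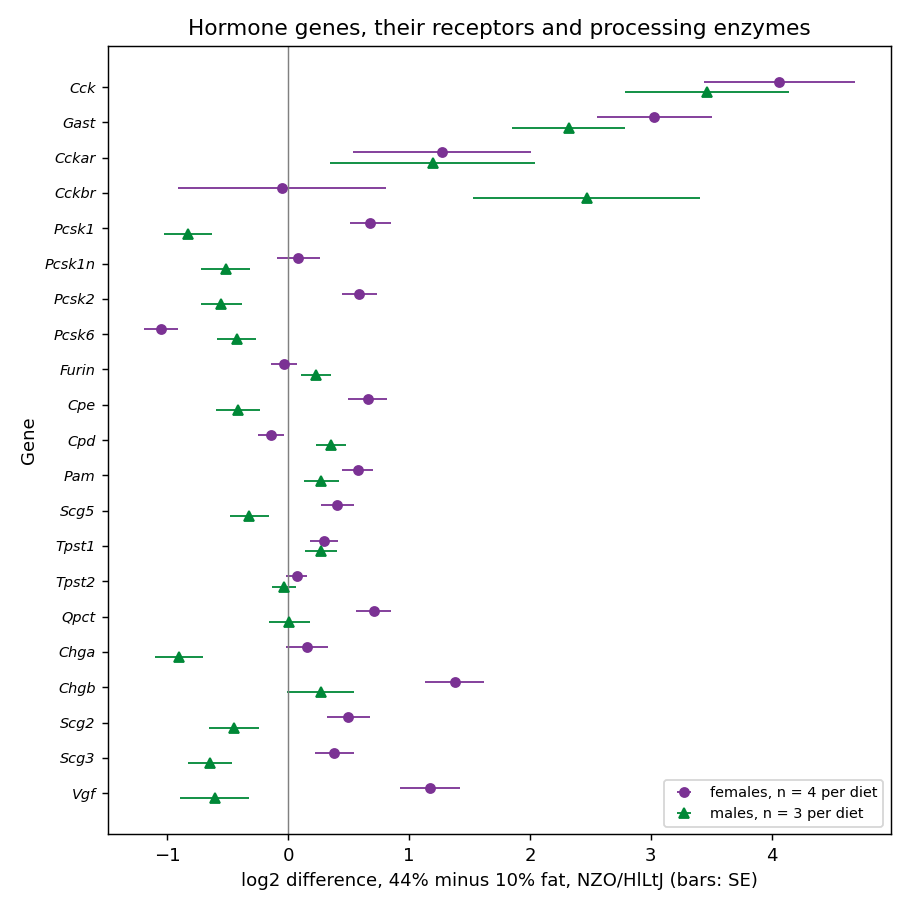
Fitted log2 difference, 44% minus 10% fat, in NZO/HlLtJ females (purple circles) and males (green triangles) for Cck, Gast, their receptors and 17 prohormone processing genes; bars are 1 SE. Cck and Gast lie at 2.32 or above in both sexes, while Pcsk1, Pcsk2, Cpe and Scg2 lie right of 0 in females and left of it in males.

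Other peptide hormones were mixed. Of 30 gut, islet and neural peptide genes other than Cck and Gast, 22 had a row and 20 were tested, and 4 were higher and 2 lower on 44% fat in NZO/HlLtJ (median 0.05), near the 18.5% higher and 17.3% lower of all genes. Pdyn rose by 1.54, Adm (adrenomedullin) by 1.34, Edn1 (endothelin 1) by 1.08 and Penk (proenkephalin) by 0.94. Ucn3 fell by 1.18 and Sst fell by 0.34. Ghrl (ghrelin), Pyy (peptide YY) and Gcg had differences of -0.67, -0.04 and 0.05 over both sexes, and none passed. By sex, Gcg had -0.65 in females (edgeR adjusted p = 0.0493) and 0.75 in males (adjusted p = 0.0304). Its interaction passed (adjusted p = 0.0113). Penk passed in males alone (1.83 against 0.05 in females). Pdyn (2.63) and Sst (-0.68) passed in females alone, at 0.45 and 0.009 in males. In females 2 of the 20 rose and 3 fell, beside 9.37% and 7.83% of all genes. For males it was 3 and 1, beside 17% and 15.1%. The intestinal hormone genes Gip, Nts and Mln had no row under these symbols and were not analysed here.

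Transcription factors of enteroendocrine and islet endocrine cells were read in the same contrast. Of 34 genes, 31 were tested, and 3 rose and 16 fell in NZO/HlLtJ, with a median of -0.38. Sox9, a progenitor factor also on the duct list, rose by 1.55, Foxa1 by 1.38 and Onecut2 by 0.94. Nkx6-1, a factor of beta cell identity, fell by 0.88, Insm1 by 0.72 and Pax6, which acts across endocrine lineages, by 0.70. The Foxa1 call was lost under 4 of the 9 other settings, with differences of 0.53 to 1.46. Of all genes 18.5% were higher and 17.3% lower.

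Markers of the tissues that normally make these hormones were looked at next. Of 23 gut epithelium genes, 10 had a row and all 10 were tested. Their summed level in NZO/HlLtJ was 145 to 240 CPM in females on 10% fat, 198 to 237 in females on 44% fat, 163 to 211 in males on 10% fat and 182 to 236 in males on 44% fat, and all 4 groups overlapped. Abundant members carry much of that sum, such as Vil1 and Tff2, at means of 108 and 93.3 CPM over all libraries. The overlap therefore says little of the scarcer members. Over both sexes Apoa1 rose by 1.35 and Muc6 by 1.04, and Atp4a, the gastric proton pump, fell by 0.97, beside 18.5% higher and 17.3% lower of all genes. Apoa1 rose in females (2.90) and had a difference of -0.20 in males. The Muc6 call was lost under 7 of the 9 other settings, with differences of 0.15 to 1.09, and in 22 of the 45 fits without 1 library. Gkn3, a gastrokine of the stomach, rose by 5.46 (SE 1.00, edgeR adjusted p = 5.88e-05) in males and had a difference of 2.77 (adjusted p = 0.0983) over both sexes. Its level was 6.72 CPM in NZO/HlLtJ male 44% fat replicate 3, the highest of all 45 libraries. In the other 13 NZO/HlLtJ libraries it was no more than 0.101 CPM. Replicate 3 is the NZO/HlLtJ library with CAST/EiJ transcripts, whose part in its Gkn3 value was not tested. Without replicate 3 the Gkn3 difference in males was 0.39 (SE 1.10, edgeR adjusted p = 0.856). The 2 other males on 44% fat had 94.7 and 78.7 CPM of Cck and 8.84 and 4.96 CPM of Gast. Whether gut RNA has a part in the Cck and Gast values was not tested. Muc2 and Lct, of goblet cells and enterocytes, averaged 0.131 and 0.0996 CPM over all libraries. The intestinal factors Cdx1 and Cdx2 had no row under these symbols and were not analysed here.

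Of 13 peripheral neuron genes none rose and 4 fell in NZO/HlLtJ over both sexes (median -0.46), among them Th, the catecholamine enzyme, which fell by 0.93, and Elavl4, which fell by 0.67. Their summed level went from 109 to 142 CPM in females on 10% fat to 61.4 to 73.2 CPM in males on 44% fat. That sum is carried by abundant members such as Th. Gene by gene the sexes differed in direction, with a median of -0.91 and 4 genes fallen in females, and a median of 0.32 with 3 fallen and none risen in males. Of all genes, 17.3% were lower over both sexes, 7.83% in females and 15.1% in males. Shares called higher were 18.5%, 9.37% and 17% in that order. In males Slc18a3, the vesicular acetylcholine transporter, had a difference of 1.59 (edgeR adjusted p = 0.0719), Phox2a 0.92, Prph 0.74, Nefl 0.72 and Elavl3 0.69, and none of these 5 passed.

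Islet and other pancreatic cell markers moved in NZO/HlLtJ along with Cck and Gast. All 10 macrophage genes rose (median 1.96), such as Mrc1 by 2.41 and Lyz2 by 2.39. Their summed level was 59.3 to 66.3 CPM in females on 10% fat, 158 to 222 in females on 44% fat, 84.1 to 263 in males on 10% fat and 489 to 889 in males on 44% fat. Of 14 duct genes 9 rose and none fell (median 1.34), with Car2 up by 2.13 and Spp1 by 1.96, from 670 to 748 CPM in females on 10% fat to 1552 to 2475 CPM in males on 44% fat. Of 10 beta cell genes none rose and 7 fell (median -0.76), as Slc2a2 (the glucose transporter) fell by 1.07 and Slc30a8 (a zinc transporter) fell by 1.01. By sex, 2 beta cell genes rose and 1 fell in females (median -0.23), none rose and 9 fell in males (median -1.30), and the interaction was lower in males for 9 of the 10, the same direction as in the processing genes. Of 8 alpha cell genes 2 rose and 2 fell over both sexes, with 2 up and 4 down in females (median -0.55) and 3 up and 1 down in males (median 0.45). Of 6 delta cell genes 1 rose and 2 fell, with none up and 3 down in females (median -0.66) and 2 up and none down in males (median 0.34). These 2 include Cckbr, whose call in males was lost without NZO/HlLtJ male 44% fat replicate 3. Of 3 gamma and epsilon cell genes none passed. Beside these counts stand 18.5% higher and 17.3% lower of all genes over both sexes, and the alpha and delta counts over both sexes are near those shares. Beside the counts by sex stand 9.37% higher and 7.83% lower in females, and 17% higher and 15.1% lower in males. In the interaction 4.42% were higher and 5.58% lower in males. Fewer cells of a type and less RNA per cell cannot be told apart in bulk tissue, and the part of these shifts in the Cck and Gast values was not tested.

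Marker sums of single libraries are set beside their Cck here, as values only. Within NZO/HlLtJ males on 10% fat, replicates 1, 2 and 3 had 0.459, 2.27 and 21.5 CPM of Cck, 84.1, 147 and 263 CPM of macrophage markers and 730, 902 and 1278 CPM of duct markers. Among females on 44% fat, replicate 1 had the least Cck and the second most macrophage signal, 209 CPM against 158 to 222 in the others. CAST/EiJ male 10% fat replicate 3 had 337 CPM of macrophage markers, more than any NZO/HlLtJ library except males on 44% fat, and 0.297 CPM of Cck. CAST/EiJ female 10% fat replicate 4 had the highest acinar sum of all, 666385 CPM, with 0.127 CPM of Cck and 0.0634 CPM of Gast. With the acinar score as a covariate the NZO/HlLtJ diet difference was 3.90 for Cck and 2.87 for Gast. Whether macrophage, duct or acinar RNA has a part in the Cck and Gast values was not tested.

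**Figure D4:**
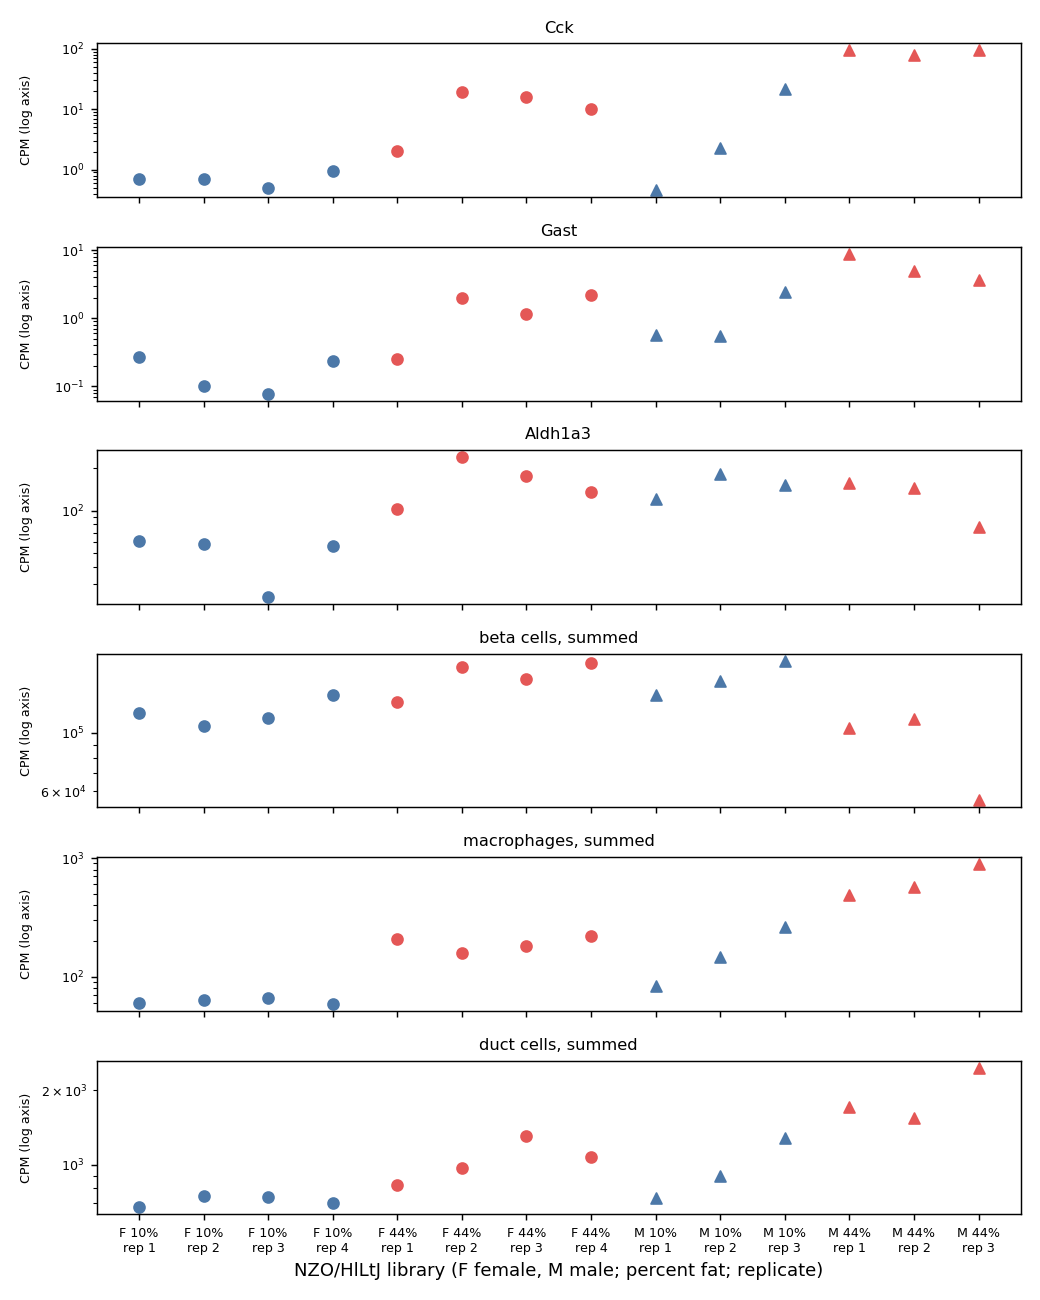
Cck, Gast, Aldh1a3 and the summed beta cell, macrophage and duct cell markers in each of the 14 NZO/HlLtJ libraries, in CPM on log axes that differ in range between panels (circles female, triangles male, blue 10% fat, red 44% fat). Males on 44% fat are highest for Cck, Gast, macrophage and duct markers, whereas their beta cell sums, 55274 to 113175 CPM, include the lowest of the 14.

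Of 9 genes used as marks of beta cells that lose their identity, 6 rose in NZO/HlLtJ and none fell (median 0.73), beside 18.5% higher and 17.3% lower of all genes. Aldh1a3, an aldehyde dehydrogenase of failing beta cells, rose by 0.73 (edgeR adjusted p = 0.0145), by 1.72 in females (adjusted p = 0.000267), and had a difference of -0.27 (adjusted p = 0.603) in males. Its interaction passed (adjusted p = 0.00749). With library totals the Aldh1a3 call over both sexes was lost. Ldha (lactate dehydrogenase A) rose by 1.05 and Slc16a1 (a monocarboxylate transporter) by 0.86, both of them genes that mature beta cells keep low. Neurog3, the endocrine progenitor factor, had a difference of -0.23 and did not pass.

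Genes whose group means most resembled those of Cck and Gast were ranked by Pearson's r of log2 CPM over the 12 groups, among 14100 and 14101 genes with a mean of at least 1 CPM. For Cck they were BC028528 (r = 0.986), Axl (0.985), Cd40 (0.985), Col18a1 (0.985) and Il1rn (0.984). Axl encodes a receptor tyrosine kinase, Cd40 a receptor of the TNF receptor family, Col18a1 a basement membrane collagen and Il1rn the interleukin 1 receptor antagonist. Il1rn went from 0.352 ± 0.172 CPM in NZO/HlLtJ females on 10% fat to 8.89 ± 2.24 in males on 44% fat, and Col18a1 from 17.9 ± 1.05 to 100.6 ± 25.5.

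For Gast they were Clec7a (r = 0.990), Car2 (0.987), Ifi47 (0.983), Grrp1 (0.983) and Marc2 (0.979). Clec7a encodes dectin 1, a receptor of myeloid cells, Car2 carbonic anhydrase 2, and Ifi47 an interferon-induced GTPase. Clec7a went from 2.52 ± 0.537 CPM in NZO/HlLtJ females on 10% fat to 29.3 ± 6.56 in males on 44% fat, and Ifi47 from 2.68 ± 0.787 to 30.9 ± 5.43. Cck and Gast correlated with each other at r = 0.917 over the 12 groups, which would be rank 440 among the genes like Cck. The floor of 1 CPM is a mean over all libraries. Il1rn and Car2 passed it only through NZO/HlLtJ groups, with group means elsewhere of no more than 0.254 and 0.8045 CPM. The likeness of such genes is in part set by that filter. The points share libraries and depth, many genes track the same groups, and the lists are not firm. On vst values 1 of the 5 names stayed for Cck and 3 for Gast, and over 45 libraries 1 and 0.

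The genes beside Cck and Gast were also read. Within 250 kb of Cck all 7 neighbours were tested, and in the NZO/HlLtJ diet contrast none rose and 2 fell, Ulk4 by 0.80 and Vipr1, a receptor for vasoactive intestinal peptide, by 0.55. The nearest, Trak1, 14.9 kb away, had a difference of -0.01. Within 250 kb of Gast 15 of 16 neighbours were tested, and 6 rose and 1 fell. Of all genes 18.5% were higher and 17.3% lower, and the counts around Cck are near those shares. The risers included the keratin genes Krt17 (2.09, 73.4 kb away) and Krt19 (1.49, 185.7 kb away), the latter on the duct list, and Ttc25 (2.16, 208.6 kb away). Hap1 and Eif1, the nearest at 10.3 and 12.3 kb, had differences of 0.05 and -0.13 and did not pass.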

How the data were processed

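Poly(A) RNA from islets was sequenced as 150 base paired-end reads, per the labels' protocols. The authors deposited a matrix of estimated counts per gene, of which 23.6% are not whole numbers, and a matrix of variance stabilised (vst) values on a log2 scale. The build is GRCm38 and DESeq2 is named, per the submitters' processing notes; the aligner, counter and strand setting were not given in the sources used here. Every sample column was used: 0 were left out.

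Estimated counts were rounded. One edgeR 4.0.16 quasi-likelihood model (TMM, filterByExpr, robust) covered all 45 libraries and 12 groups, with contrasts tested over 20306 genes and Benjamini-Hochberg adjustment. DESeq2 1.42.0 and limma 3.58.1 (on vst) were alternatives (R 4.3.3). Log2 CPM used a prior count of 2. SE is the absolute log2 difference divided by the root of F. The tests were checked on simulated counts. Exon and transcript positions came from GENCODE M21. Correlations used 100000 permutations (SciPy 1.17.1). Replicate numbers were given in accession order.

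Members, gene lists and tests were chosen with earlier results of these data known. Genes named were Cck and Gast, the 5 most like each, both receptors, up to 6 called genes per list with the largest difference, list genes at or near 0, and neighbours within 250 kb. Pcsk1, Pcsk2, Cpe, Scg2, Ghrl, Pyy, Gcg, Ppy, Neurog3, Gkn3, Slc18a3, Phox2a, Prph, Nefl and Elavl3 were named in addition, after their values were seen.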

Additional observations from a re-analysis of the deposited data

Results flagged for a closer look

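Cck in CAST/EiJ female 10% fat replicate 2, at 0.470 CPM, stood apart from the other 3 libraries of its group at 0.108 to 0.127 CPM, by Dixon's test for a single outlying value. It was the only one of 18 groups of 4 libraries, 9 for each gene, to do so, and chance flags about 1 in 20. The library had 37 counts of Cck, 0.178 CPM of Gast (the highest of its group), and the lowest acinar marker sum of its group, 10975 CPM.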

How the results depend on the processing

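Of 299 recomputed values of the main results under other settings, 277 kept their direction and their side of the threshold (or stayed near the first value), as did 1510 of 1544 recomputed with 1 library left out. For values without a test, near means a change below the within-group SD, 1.49 for Cck and 1.06 for Gast. The Cck diet difference in NZO/HlLtJ females, 4.06, thus counted as kept at its lowest, 2.68. List counts were judged by their ratio. Tests that passed neither time also count as kept. The NZO/HlLtJ sex difference kept its call throughout, with 2.32 to 3.32 for Cck and 1.32 to 2.58 for Gast over 9 other settings. For every value below the cause was not tested. RLE scaling and limma on vst values each left 1 hormone gene lower. Library totals left 1 processing gene higher, and put Gast between CAST/EiJ and C57BL/6J on 44% fat at -1.54. The number series as a factor put that difference at -1.44 and the Gast diet-by-sex interaction in NZO/HlLtJ at 0.014, and the acinar covariate put the CAST/EiJ minus C57BL/6J difference of Gast at -0.11 on 10% and -1.73 on 44% fat. Without the 5 libraries with transcripts of another strain 1 processing gene was lower and 2 hormone genes higher, the Gast diet-by-sex interaction in CAST/EiJ was 0.55, and the strain difference of Gast on 44% fat was -2.01. With only the strains compared in the fit, 1 receptor gene was higher and 1 processing gene lower, and with DESeq2 1 receptor gene was higher. With limma on vst values the Gast diet difference in NZO/HlLtJ was 1.48 and in females 1.17, the NZO/HlLtJ interactions were 1.64 for Cck and 0.62 for Gast, and the CAST/EiJ minus C57BL/6J difference of Cck was 0.58 on 10% and 0.53 on 44% fat, and of Gast -0.22 on 44% fat.

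With 1 library left out, the Cck diet difference ran from -0.12 to 0.66 in CAST/EiJ (below 0 without CAST/EiJ male 44% fat replicate 1) and from 2.88 to 6.03 in NZO/HlLtJ males. The Cck diet-by-sex interaction ran from -1.14 to 0.56 in C57BL/6J (above 0 without female 10% fat replicate 1 or male 10% fat replicate 2) and from -1.16 to 1.96 in NZO/HlLtJ, and that of Gast from -1.15 to 0.34 in NZO/HlLtJ, both above 0 without NZO/HlLtJ male 10% fat replicate 3. The Cck sex difference ran from -0.64 to 0.0903 in C57BL/6J (above 0 without female 10% fat replicate 2 or 4, or male 44% fat replicate 4) and from -0.77 to 0.0112 in CAST/EiJ (above 0 without female 10% fat replicate 2). The CAST/EiJ minus C57BL/6J difference of Gast ran from -0.0176 to 0.39 on 10% fat (below 0 without CAST/EiJ male 10% fat replicate 1) and from -1.68 to -1.26 on 44% fat. Of the list genes named, Edn1 lost its call in 6 of the 45 fits, Foxa1 in 7, Mafa in 6, Sst in 4, Chga in 3, and Penk, Qpct and Krt19 in 2 each. Pearson's r of the pair ran from 0.660 to 0.841. In the NZO/HlLtJ diet contrast, receptor genes called higher ran from 0 to 1 (1 without C57BL/6J female 44% fat replicate 1 or NZO/HlLtJ female 10% fat replicate 2). Hormone genes ran from 2 to 5 higher (2 without NZO/HlLtJ male 10% fat replicate 1 or male 44% fat replicate 3) and from 1 to 3 lower (1 without NZO/HlLtJ female 10% fat replicate 4 or female 44% fat replicate 2). Processing genes ran from 2 to 4 higher (2 without NZO/HlLtJ male 10% fat replicate 1) and from 1 to 2 lower (1 without NZO/HlLtJ female 10% fat replicate 4, female 44% fat replicate 3 or male 44% fat replicate 3).

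No paired analysis was possible because the replicate numbers were given in accession order and the labels carry none that ties libraries across groups. Depth limits the C57BL/6J and CAST/EiJ values most, since all 16 C57BL/6J libraries and 5 of 15 CAST/EiJ libraries held fewer than 10 counts of Cck. The within-group correlation on vst values was added after the data were seen, and gave r = 0.783, as were the fits of Cckbr and Gkn3 without NZO/HlLtJ male 44% fat replicate 3.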
